A study of Homo sapiens with 6 samples.

Results

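A549 cells given a plasmid for PIAS3 were compared with A549 cells given an siRNA against STAT3. A549 is an established human line from a lung adenocarcinoma. The members are the arrays whose titles name these 2 treatments: 2 arrays labelled PIAS3 and 2 labelled STAT3 siRNA, 4 of the 6 arrays of the study. Every probe set that is not an array control was kept, 22215 of 22277. The remaining 2 arrays are labelled as stimulated with EGF and, by the protocol, came from cells that were not transfected. Their values served here as a reference level, and in the limma fit they also added to the shared estimate of spread.

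The cells of all groups were plated for 12 h with 10% FBS. The series text adds that every group was kept without serum and given EGF, whereas among the titles those of the control arrays alone name it. PIAS3 was expressed from pCMV5, a vector with a cytomegalovirus promoter that is active in most cell types, and RNA was collected 48 h after transfection. No empty vector and no non-targeting siRNA is among the groups analysed here. The response to PIAS3 and to plasmid DNA therefore cannot be told apart, nor the response to the loss of STAT3 and to siRNA delivery. The study's title and design text set the question as whether PIAS3 acts on apoptosis genes as a loss of STAT3 does. Separate cultures are not stated for the 2 arrays of a group, so each p-value below measures only how far these arrays spread, possibly for technical reasons, and their small number limits the precision.

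STAT3 is a transcription factor that cytokine receptors of the IL-6 family and the EGF receptor activate by phosphorylation; its dimers bind palindromic sites and induce acute phase, survival and feedback genes. PIAS3 binds activated STAT3, blocks its contact with DNA and also works as a ligase for the small protein modifier SUMO. Interferon-stimulated genes are a separate programme, driven through IRF9 complexes and IRF factors that bind an element built from repeated GAAA, and cells switch it on when interferon or nucleic acid is sensed.

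The arrays of a group were not equally alike. Over all probe sets, the SD of the log2 difference was 0.346 between the 2 PIAS3 arrays, 0.254 between the 2 STAT3 siRNA arrays and 0.152 between the 2 control arrays. PIAS3 replicate 2 lay closer to STAT3 siRNA replicate 2 (SD 0.187) than to the other array of its own group. STAT3 siRNA replicate 1 lay at 0.199 from a control array, closer than to its own partner. Of 11963 genes, each represented by its brightest probe set, 124 differed by over 1 log2 unit between the PIAS3 arrays and 109 of them were higher in replicate 1. Another 79 differed by as much between the STAT3 siRNA arrays, against 1 gene between the control arrays. The array's own spike-in RNAs also set PIAS3 replicate 1 apart. The 24 probe sets for the poly-A spike-ins, added before labelling, had a median 1.41 above the controls there and between -0.36 and -0.13 in the other transfected arrays. The 3' probe sets for actin exceeded the 5' ones by 0.43 and 0.28 in PIAS3, 0.16 and 0.23 in STAT3 siRNA and 0.12 and 0.10 in control arrays, whereas for GAPDH the groups overlapped, at 0.29 to 0.40 in all arrays. Array medians ranged from 6.63 to 6.72. The part that these differences play in the results below was not tested, and values are given with and without PIAS3 replicate 1 and STAT3 siRNA replicate 1 where they bear on a result. KRT18, an epithelial keratin that marks this line, stood between 13.60 and 13.79 in all 6 arrays.

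No probe set passed the threshold. With limma over all 6 arrays and Benjamini-Hochberg adjustment, 0 of 22215 probe sets were called higher and 0 lower in PIAS3 than in STAT3 siRNA (0.0% each), and the smallest adjusted p was 0.607. At an unadjusted p under 0.05, 793 probe sets (3.57%) were higher and 1006 (4.53%) lower. Among genes these were 501 (4.19%) and 458 (3.83%) of 11963. The plot of all probe sets shows the tallest points, those with the smallest p, at differences near 1 log2 unit, while the widest differences have a p above 0.05. Of the 96 genes whose group means differed by over 1 log2 unit, 85 stood higher and 11 lower in PIAS3. In 62 of those 96 (64.6%) the 2 PIAS3 arrays were themselves over 1 log2 unit apart. In a bulk lysate, fewer cells with a transcript and less of it per cell cannot be told apart, and the share of cells transfected was not given in the labels.

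**Figure D1:**
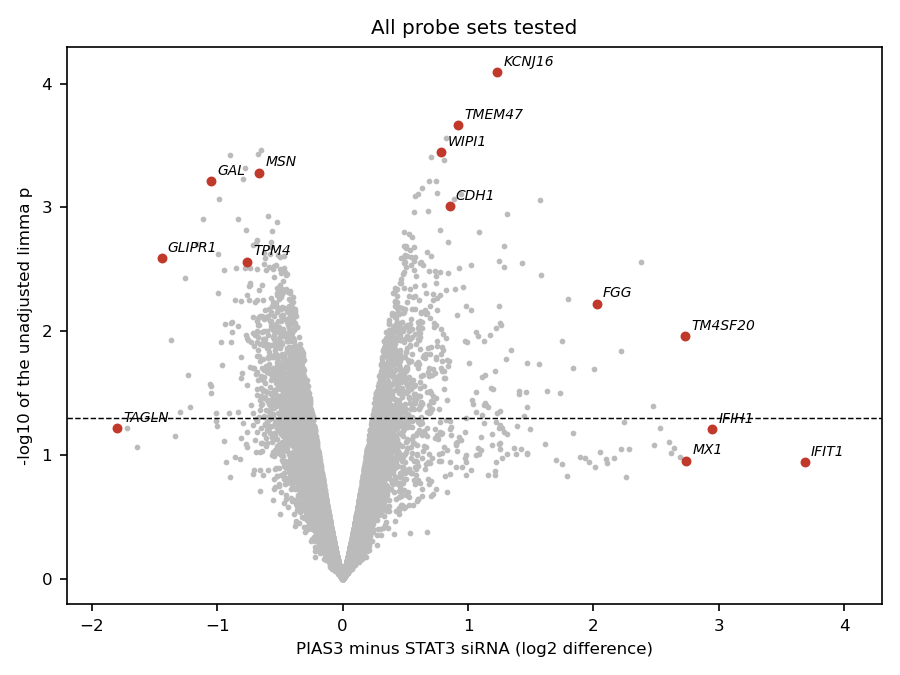
Each point is 1 of 22215 probe sets; the x axis gives the log2 difference, PIAS3 minus STAT3 siRNA, the y axis the -log10 of the unadjusted limma p-value, and the dashed line marks 0.05. KCNJ16 has the smallest p of the genes at a log2 difference of 1.23, whereas IFIT1, at 3.68, lies below the line.

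The targeted genes did not separate the groups in the way their labels name. PIAS3 (Entrez gene 10401) read 7.78 and 7.72 with PIAS3, 7.50 and 7.64 with STAT3 siRNA and 7.70 and 7.71 without transfection. The log2 difference of the transfected groups was 0.18 ± 0.11 (SE, n = 2 per group; limma unadjusted p = 0.144), and the arrays of cells given the plasmid lay at the control level. Where its single probe set lies relative to the insert of the plasmid was not known here, so this value does not check the transfection. STAT3 (Entrez gene 6774) stood at 10.18 and 9.70 in PIAS3, 10.23 and 9.94 in STAT3 siRNA and 10.50 and 10.43 in control arrays, a difference of -0.15 ± 0.18 between the transfected groups. Its dimmer probe set stood at 9.62 and 9.24, 9.78 and 9.62 and 10.02 and 10.03 in the same order of groups (-0.27 ± 0.14; unadjusted p = 0.104 in limma), with both PIAS3 arrays below both siRNA arrays. In both probe sets all 4 transfected arrays were below both control arrays, and the array with the least STAT3 was PIAS3 replicate 2, not one given the siRNA. Groups are called PIAS3 and STAT3 siRNA below as their labels name them.

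Genes of the pathway between receptor and STAT3 showed small differences. Of 17 measured genes of the PIAS and STAT3 axis, 11 stood higher and 6 lower in PIAS3, and the median difference was 0.09 against -0.002 over all genes. Only 1 had an unadjusted p under 0.05, in the higher direction, where 4.19% of all genes lie. That gene was PIAS1, a related SUMO ligase, at 8.44 and 8.25 in PIAS3 and 8.11 and 7.98 in STAT3 siRNA arrays (0.30 ± 0.12); the other 2 probe sets for it gave -0.01 and 0.02. SOCS3, which STAT3 induces and which feeds back on cytokine receptors, was 7.07 and 6.38 in PIAS3 and 6.18 and 6.64 in STAT3 siRNA arrays, so the groups overlapped. The receptor subunit IL6R (0.27 ± 0.20) and the EGF receptor gene EGFR (-0.15 ± 0.12) differed by little more than their standard errors. Leaving out PIAS3 replicate 1, the median of this list turned to -0.03, and without STAT3 siRNA replicate 1 to -0.004.

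A small set of genes had both PIAS3 arrays well above both STAT3 siRNA arrays. Over all genes, 2034 (17.0%) had both PIAS3 arrays higher and 2091 (17.5%) both lower, and the gap between the groups was at least 0.5 log2 units for 24 and 6 of them. KCNJ16 (Entrez gene 3773), an inward rectifier potassium channel subunit, stood at 6.44 and 6.41 in PIAS3, 5.01 and 5.38 in STAT3 siRNA and 4.86 and 5.12 in control arrays. Its difference of 1.23 ± 0.16 was 2.35-fold with an unadjusted p of 8.11e-05 and an adjusted p of 0.607. The 2 PIAS3 arrays lay together here, and the siRNA arrays lay near the control level. KCNJ16 and the genes of the next paragraph were taken by smallest p among genes with separate groups. So were WIPI1, GABARAPL1, RALGPS1, BDKRB2 and C14orf132 further below. Their separation was thus a condition of choice.

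TMEM47, a membrane protein of cell junctions, followed the same order with 5.45 and 5.22 in PIAS3, 4.29 and 4.55 in STAT3 siRNA and 4.29 and 4.22 in control arrays (0.92 ± 0.14). CD14, a co-receptor for bacterial lipopolysaccharide, stood at 6.84 and 6.54, 5.90 and 5.99 and 5.87 and 5.83 in the same order of groups (0.74 ± 0.13). CDH1, which encodes E-cadherin, the adhesion molecule of epithelial junctions, stood at 9.54 and 9.14, 8.37 and 8.60 and 8.31 and 8.19 (0.85 ± 0.16), although its dimmer probe set gave -0.08 ± 0.12. In each of these genes both PIAS3 arrays were also above both control arrays, which the choice did not require. INSL4, a placental insulin-like peptide, had PIAS3 arrays at 8.86 and 8.84 and siRNA arrays at 8.01 and 8.32, with both control arrays lowest at 7.69 and 7.77 (0.68 ± 0.13). LLGL2, a regulator of cell polarity, differed by 0.60 ± 0.11, and CORO2A, an actin-binding coronin, by 0.63 ± 0.11.

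Autophagy genes formed part of this set. WIPI1, which binds the phosphoinositide of forming autophagosomes, stood at 8.31 and 8.17 in PIAS3 and 7.35 and 7.56 in STAT3 siRNA arrays, with 7.64 and 7.47 in the controls (0.78 ± 0.12); its other probe set gave 0.62 ± 0.14. GABARAPL1, a ubiquitin-like protein of the autophagosome membrane, stood at 7.03 and 6.80 in PIAS3, 6.56 and 6.26 in control and 6.15 and 5.78 in STAT3 siRNA arrays (0.95 ± 0.17). Here the controls lay between the groups, so part of the distance was a lower level in the siRNA arrays, and its dimmer probe set gave 0.29 ± 0.16. RALGPS1, an exchange factor for Ral GTPases, had the same order, at 6.86 and 6.89, 6.57 and 6.45 and 6.08 and 6.30 (0.69 ± 0.12), with 0.24 ± 0.14 in its dimmer probe set. BDKRB2, a bradykinin receptor, was the clearest case of it: the PIAS3 arrays at 7.28 and 7.17 were close to the control arrays at 7.17 and 7.20, and only the siRNA arrays, at 6.64 and 6.66, stood away (0.57 ± 0.10). C14orf132 (0.71 ± 0.11) also had its control arrays between the groups. Of the 31 measured genes for autophagy and lysosome, 4 had an unadjusted p under 0.05 in the higher direction, against 4.19% of all genes: WIPI1, GABARAPL1, ULK1 (0.42 ± 0.14), the kinase that starts autophagy, and CTSB (0.32 ± 0.11), a lysosomal protease. ATG16L1 was the 1 lower gene, at -0.28 ± 0.11 and a dim level. The list median was 0.12 in place of 0.11 when PIAS3 replicate 1 was left out. Without STAT3 siRNA replicate 1 it was 0.07, and without STAT3 siRNA replicate 2 it was 0.13.

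**Figure D2:**
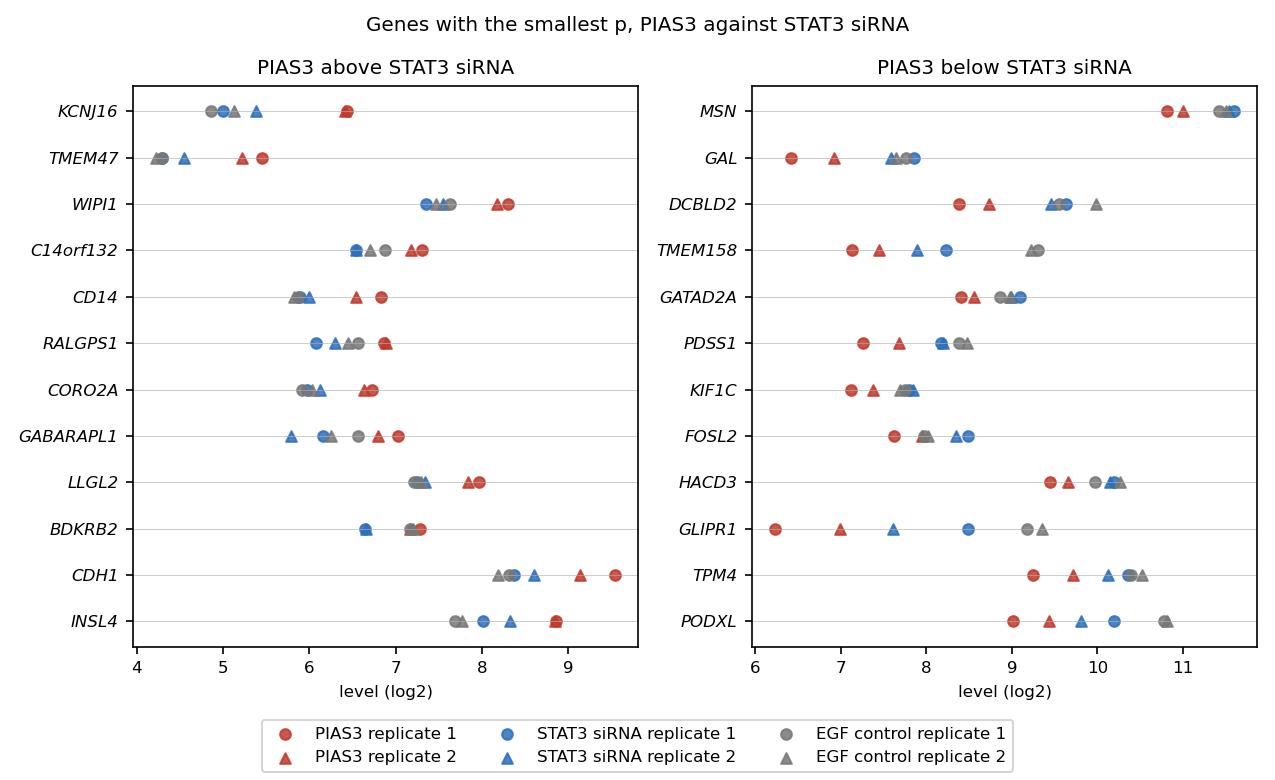
Level on the log2 scale (x axis) of 12 genes in each direction, 1 point per array and 6 arrays per gene. They have the smallest p among genes with separate groups that differ by at least 0.5, with a higher mean of at least 5. The red PIAS3 points and blue STAT3 siRNA points of a gene therefore do not overlap by choice. KCNJ16 PIAS3 arrays lie at 6.44 and 6.41 and MSN PIAS3 arrays at 10.82 and 10.997.

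The plot of the genes with the smallest p also holds those lower in PIAS3, for which separate groups were again a condition of choice. MSN, which encodes moesin, a linker between membrane and actin, stood at 10.82 and 10.997 in PIAS3, 11.60 and 11.54 in STAT3 siRNA and 11.42 and 11.50 in control arrays (-0.67 ± 0.11; unadjusted p = 0.000525). The groups did not overlap, and the siRNA arrays lay just above the controls. GAL, the neuropeptide galanin, stood at 6.41 and 6.92, 7.85 and 7.58 and 7.76 and 7.64 in that order of groups (-1.05 ± 0.18), although its dimmer probe set gave -0.06 ± 0.14. DCBLD2, a membrane receptor that binds growth factor receptors, stood at 8.38 and 8.74, 9.63 and 9.46 and 9.55 and 9.98 (-0.99 ± 0.18). In GAL and DCBLD2 the siRNA arrays lay near the controls and the PIAS3 arrays below both.

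In another kind of gene both transfected groups lay under the controls and PIAS3 lay lower. GLIPR1, a secreted protein of the CAP family, stood at 6.23 and 6.98 in PIAS3, 8.49 and 7.61 in STAT3 siRNA and 9.18 and 9.35 in control arrays. Its difference was -1.44 ± 0.32, and its other 2 probe sets gave -1.12 ± 0.22 and -0.83 ± 0.24. TMEM158, which RAS signalling induces, stood at 7.13 and 7.45, 8.22 and 7.90 and 9.30 and 9.23 (-0.77 ± 0.16). PODXL, the sialomucin podocalyxin, stood at 9.02 and 9.44, 10.20 and 9.81 and 10.78 and 10.82 (-0.78 ± 0.18). DCLK1, a doublecortin-like kinase chosen after its values were seen, had the same order at 5.83 and 6.76, 7.80 and 7.31 and 8.70 and 8.46 (-1.26 ± 0.30), although its dimmer probe set gave -0.05 ± 0.11. FOSL2, an AP-1 subunit, had its controls (7.97 and 8.02) between the groups, with the PIAS3 arrays (7.62 and 7.95) below and the siRNA arrays (8.48 and 8.34) above them. The other genes named by the same rule were GATAD2A (-0.56 ± 0.12), a subunit of a chromatin remodelling complex, PDSS1 (-0.72 ± 0.15), an enzyme of coenzyme Q synthesis, KIF1C (-0.57 ± 0.12), a kinesin whose other probe set gave 0.11 ± 0.15, and HACD3 (-0.62 ± 0.14), an enzyme of fatty acid elongation.

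In most genes at this threshold the controls lay nearer to the STAT3 siRNA arrays. Among the 501 genes with an unadjusted p under 0.05 and a higher level in PIAS3, the control mean was nearer to the siRNA mean in 423 (84.4%). Among the 458 lower genes it was nearer in 365 (79.7%). The same share was not taken over all genes or with single arrays left out, so these shares have no background beside them. The control values enter this comparison as a level and, through the p-values, in the estimate of spread, and their distance was not tested.

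STAT3 targets included some of the widest differences, and these were carried by genes of the acute phase. Of 36 measured STAT3 targets, 28 stood higher and 8 lower in PIAS3, 10 had an unadjusted p under 0.05 in the higher direction (4.19% of all genes) and 0 in the lower, and the median difference was 0.17. The arrays of the groups did not overlap for 13 higher and 2 lower members, 41.7% of the list against 34.5% of all genes. FGA, FGB and FGG encode the 3 chains of fibrinogen, the clotting protein that liver releases in inflammation. FGG stood at 9.57 and 8.61 in PIAS3, 6.21 and 7.92 in STAT3 siRNA and 5.93 and 5.64 in control arrays (2.03 ± 0.53, 4.07-fold). FGA stood at 9.29 and 8.02, 6.30 and 7.42 and 5.63 and 5.90 (1.80 ± 0.46). FGB stood at 8.82 and 7.96, 5.47 and 7.63 and 5.73 and 5.59 (1.84 ± 0.62). In all 3 chains the siRNA arrays were far apart: replicate 1 lay near the controls and replicate 2 between them and the PIAS3 arrays.

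FGA is shown because it was 1 of 4 STAT3 targets, of 23 with a promoter in the RefSeq table (GRCh38.p14), that held the palindrome TTCNNNGAA within 250 bases before the start (17.4%, against 6.78% of 27305 promoters). The palindrome reads the same on both strands, and the window lies at chr4:154590933-154590992 on the minus strand, with the match in capitals.
FGA: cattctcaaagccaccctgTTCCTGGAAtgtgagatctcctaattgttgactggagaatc
The other 3 were BCL6, IRF1 and ICAM1. A match of letters is a description of the sequence and was not tested as a binding site.

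Other STAT3 targets differed with less distance between replicates. JUNB, an AP-1 subunit, stood at 10.83 and 10.28 in PIAS3, 9.32 and 9.87 in STAT3 siRNA and 9.94 and 9.70 in control arrays (0.96 ± 0.24), with both PIAS3 arrays on top and STAT3 siRNA replicate 1 lowest. CEBPB, a transcription factor of the acute phase, stood at 12.21 and 11.66, 11.26 and 11.30 and 11.07 and 11.04 (0.66 ± 0.18), with both PIAS3 arrays on top. IER3, an immediate early gene with roles in survival, had PIAS3 arrays (12.09 and 11.85) around the control level (12.06 and 11.82) and siRNA arrays below it (11.46 and 11.57; 0.46 ± 0.14). TWIST1, a transcription factor of mesenchymal cells, differed by 0.42 ± 0.13, VEGFA, the vascular growth factor, by 0.42 ± 0.16 and BCL6, a transcriptional repressor named after its values were seen, by 0.82 ± 0.29. The other 3 probe sets of VEGFA gave -0.03, 0.07 and 0.11, and the other of BCL6 0.30 ± 0.18. Without PIAS3 replicate 1, 23 STAT3 targets stood higher and 13 lower, with a median of 0.06. Without STAT3 siRNA replicate 1 the split was 26 and 10, with a median of 0.20.

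The acute phase and hepatic-type list overlaps the STAT3 targets in the fibrinogen genes and showed the same pattern. Of 32 measured genes, 25 stood higher and 7 lower, and 8 had an unadjusted p under 0.05, all in the higher direction, where 4.19% of all genes lie. APOH, a plasma protein that binds phospholipid, was the most even of them: 9.46 and 8.89 in PIAS3, 8.53 and 8.37 in STAT3 siRNA and 8.32 and 8.37 in control arrays (0.72 ± 0.19). C1R, a protease of the complement cascade, stood at 9.99 and 8.57, 7.78 and 8.34 and 8.01 and 7.85 (1.22 ± 0.41), and its partner C1S differed by 1.06 ± 0.44 with overlapping arrays. CPS1, the first enzyme of the urea cycle, stood at 9.74 and 9.38 in PIAS3, 6.80 and 9.05 in STAT3 siRNA and 6.61 and 6.40 in control arrays (1.63 ± 0.61). Replicate 1 minus replicate 2 of the STAT3 siRNA group was -2.25 log2 units. Without PIAS3 replicate 1 the list was split 21 higher and 11 lower, and without STAT3 siRNA replicate 1 it was again 25 and 7.

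Some genes outside the lists, named after their values were seen, had the same order of arrays. TM4SF20, a tetraspanin-like membrane protein, stood at 9.28 and 8.46 in PIAS3, 4.68 and 7.61 in STAT3 siRNA and 4.37 and 4.46 in control arrays (2.73 ± 0.81, 6.63-fold). FGL1, a fibrinogen-like protein secreted by liver, stood at 9.70 and 8.94, 7.17 and 8.31 and 7.18 and 7.11 (1.58 ± 0.37). ANG, the secreted ribonuclease angiogenin, stood at 8.46 and 7.95, 6.54 and 7.25 and 6.45 and 6.58 (1.31 ± 0.25). In each of them both PIAS3 arrays were highest, STAT3 siRNA replicate 2 came next and replicate 1 lay beside the controls. ANXA13, an annexin of epithelial membranes, differed by 1.28 ± 0.28, SLC7A7, an amino acid transporter subunit, by 1.25 ± 0.33, RAP1GAP, which switches off the GTPase RAP1, by 1.09 ± 0.22 and ERBB3, a receptor of the EGF receptor family, by 1.06 ± 0.31. A dimmer probe set gave -0.14 ± 0.17 for RAP1GAP and 0.09 ± 0.12 for ERBB3. ERBB3 differed in that its height came mainly from 1 array: it stood at 6.34 and 5.29 in PIAS3, 4.72 and 4.78 in STAT3 siRNA and 4.82 and 4.44 in control arrays.

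**Figure D3:**
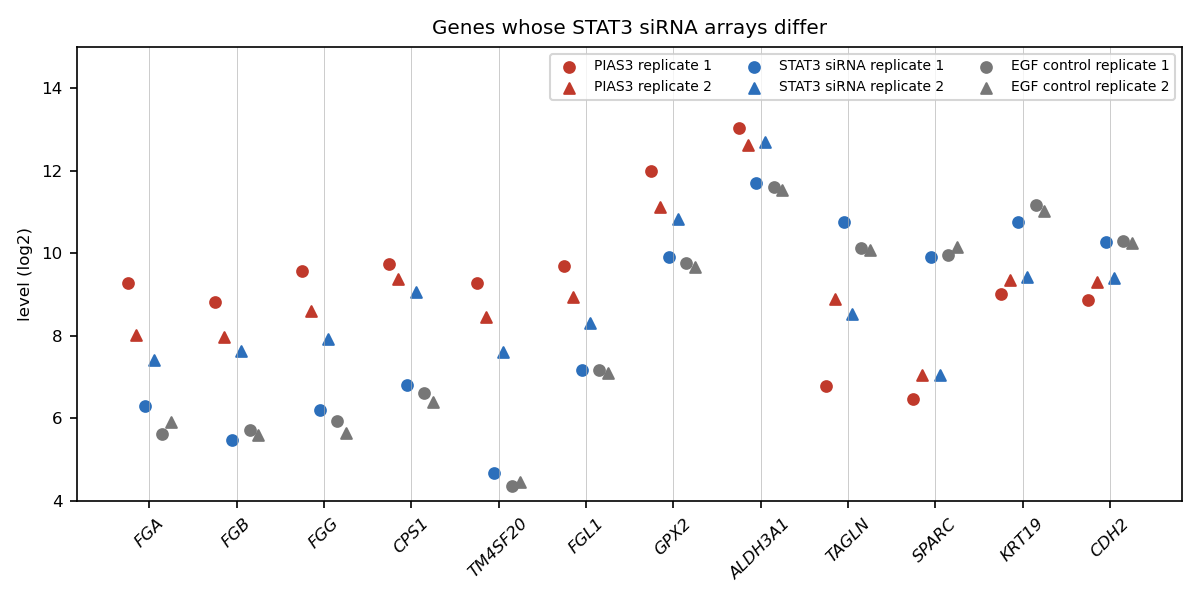
Level on the log2 scale (y axis) of 12 genes (x axis), 1 point per array, in the order PIAS3, STAT3 siRNA and EGF control. For the 8 genes on the left, STAT3 siRNA replicate 1 lies beside the controls and replicate 2 towards the PIAS3 arrays, as in TM4SF20 (4.68 and 7.61); for TAGLN, SPARC, KRT19 and CDH2 the same holds downwards.

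The plot of genes whose siRNA arrays differ shows that this split also ran downwards in some genes, which were picked here for showing it and stand for no list. SPARC, a secreted matrix protein, stood at 6.48 and 7.05 in PIAS3, 9.90 and 7.05 in STAT3 siRNA and 9.95 and 10.14 in control arrays (-1.72 ± 0.77). TAGLN, a smooth muscle actin-binding protein, stood at 6.79 and 8.89, 10.76 and 8.52 and 10.12 and 10.09 (-1.80 ± 0.81). The groups overlapped in TAGLN, and in SPARC PIAS3 replicate 2 and STAT3 siRNA replicate 2 both stood at 7.05. The unadjusted p was 0.06 for SPARC and 0.0603 for TAGLN. CDH2, which encodes N-cadherin, stood at 8.86 and 9.31, 10.29 and 9.41 and 10.31 and 10.25 (-0.76 ± 0.28), and KRT19, an epithelial keratin, at 9.02 and 9.34, 10.76 and 9.42 and 11.16 and 11.02 (-0.91 ± 0.38). EPCAM, an epithelial adhesion molecule, also had siRNA arrays far apart, at 7.12 and 6.04, with 6.36 and 6.78 in PIAS3 and 7.24 and 7.22 in control arrays. PDGFC, a growth factor named after its values were seen, was the plainest case, with 4.83 and 4.74 in PIAS3, 7.32 and 4.94 in STAT3 siRNA and 7.31 and 7.34 in control arrays. Its difference of -1.34 ± 0.63 became -2.53 without STAT3 siRNA replicate 2 (limma adjusted p = 0.034), the 1 probe set called in that fit.

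SPARC and CD14 are also markers of other cell types, and the marker lists are given whole. Of 14 fibroblast markers, 8 stood higher and 6 lower in PIAS3 and 0 had an unadjusted p under 0.05, and LUM and POSTN were at the level of a transcript that human cells lack. Their summed linear level was 1181 and 1254 in PIAS3, 2123 and 1176 in STAT3 siRNA and 2092 and 2204 in control arrays, in which SPARC is included. Of 15 leukocyte markers, 11 stood higher and 4 lower and CD14 alone had an unadjusted p under 0.05. Their summed linear level was 896 and 819 in PIAS3, 830 and 737 in STAT3 siRNA and 772 and 789 in control arrays, and PTPRC, which encodes the leukocyte antigen CD45, stood between 3.85 and 3.95 in all arrays, at the top of the range of 3.26 to 3.94 of that absent transcript. Of 10 endothelial markers 5 stood higher and 5 lower, with FLT1 (0.28 ± 0.11) the 1 at an unadjusted p under 0.05. The 16 markers of A549 cells and lung epithelium summed to between 73573 and 89763 in all arrays, and CDH1 and GPX2 were the 2 with an unadjusted p under 0.05. CD14, FLT1, CDH1 and GPX2 were all on the higher side, where 4.19% of all genes lie at that p.

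Actin genes stood mostly lower in PIAS3, with epithelial junction genes on both sides. Of 24 actin genes and targets of serum response factor, 19 were lower and 5 higher, and 4 had an unadjusted p under 0.05 in the lower direction, against 3.83% of all genes. TPM4, a tropomyosin of stress fibres, stood at 9.25 and 9.71 in PIAS3, 10.36 and 10.12 in STAT3 siRNA and 10.40 and 10.52 in control arrays (-0.76 ± 0.17), and its other probe set gave -0.90 ± 0.15. ZYX, the focal adhesion protein zyxin (-0.41 ± 0.13), MYH9, a non-muscle myosin (-0.35 ± 0.13), and TAGLN2 (-0.41 ± 0.16) followed, with CNN1, a calponin, the 1 on the higher side (0.40 ± 0.12). The list medians relative to control were -0.60 and -0.36 in PIAS3 and -0.22 and -0.48 in STAT3 siRNA arrays, so these overlapped. Without PIAS3 replicate 1, 17 stood lower and 7 higher, with a median difference of -0.10 in place of -0.24.

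Of 24 epithelial junction and keratin genes, 14 stood higher and 10 lower. Besides CDH1, JUP, which encodes plakoglobin, stood at 10.22 and 9.81 in PIAS3, 9.23 and 9.54 in STAT3 siRNA and 9.64 and 9.56 in control arrays (0.63 ± 0.17), ELF3, an epithelial transcription factor, differed by 0.51 ± 0.18 and CLDN3, a claudin of tight junctions, by 0.26 ± 0.10. At an unadjusted p under 0.05 there were 4 in the higher direction and 1, KRT19, in the lower, against 4.19% and 3.83% of all genes. In the 35 genes of TGF-beta, YAP and matrix, 15 stood higher and 20 lower. CDH2 and the ligand TGFB2 (-0.54 ± 0.20) were the 2 at an unadjusted p under 0.05, both in the lower direction, where 3.83% of all genes lie. Of 17 genes for secreted trefoil factors and mucins, 7 stood higher and 10 lower with a median of -0.05. The groups did not overlap for 2 higher and 5 lower members, 41.2% of the list against 34.5% of all genes. The 2 with an unadjusted p under 0.05 were AGR2 and MUC13 (0.59 ± 0.23), both in the higher direction, where 4.19% of all genes lie. AGR2, a protein disulfide isomerase of mucus cells, stood at 12.42 and 11.46 in PIAS3, 10.26 and 11.35 in STAT3 siRNA and 9.98 and 10.08 in control arrays (1.14 ± 0.39). AGR2 again had STAT3 siRNA replicate 2 beside a PIAS3 array.

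Genes of the NRF2 antioxidant response stood higher in PIAS3 in every measured case, by small amounts. All 31 measured members, of 35 listed, had a difference above 0, where 49.6% of all genes did, with a median of 0.20 and a range of 0.005 to 1.18. Only 4 had an unadjusted p under 0.05, against 4.19% of all genes in the higher direction. They were GPX2, a glutathione peroxidase of epithelia, TKT, the transketolase (0.31 ± 0.12), ABCC3, an export pump for conjugates (0.48 ± 0.19), and NFE2L2, which encodes NRF2 itself (0.40 ± 0.16). GPX2 stood at 11.98 and 11.12 in PIAS3, 9.92 and 10.83 in STAT3 siRNA and 9.78 and 9.68 in control arrays (1.18 ± 0.35). ALDH3A1, an aldehyde dehydrogenase, stood at 13.04 and 12.62, 11.70 and 12.69 and 11.61 and 11.55 (0.64 ± 0.30), so STAT3 siRNA replicate 2 reached the PIAS3 arrays. The list medians relative to control were 0.27 in both PIAS3 arrays, 0.03 in STAT3 siRNA replicate 1 and 0.20 in replicate 2. Without PIAS3 replicate 1, 28 members stood higher and 3 lower (median 0.17). Without STAT3 siRNA replicate 1 the split was again 28 and 3, with a median of 0.09.

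GPX2 is shown as the member with the widest difference. Of the 25 members with a RefSeq promoter, 7 (28.0%) held TGACNNNGC, the core of the antioxidant element, on either strand within 250 bases before the start, against 3013 of all 27305 promoters. Its window lies at chr14:64942834-64942893 on the minus strand, and the capitals mark the match, which lies on the opposite strand.
GPX2: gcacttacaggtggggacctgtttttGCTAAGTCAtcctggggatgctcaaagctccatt

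Interferon-stimulated genes gave the widest differences of all, and they came from 1 array. Of 47 measured genes, of 51 listed, 46 stood higher in PIAS3 with a median of 1.25. Only 6 had an unadjusted p under 0.05, all in the higher direction, where 4.19% of all genes lie. Set against the controls, the list median was 2.26 in PIAS3 replicate 1, 0.01 in the other PIAS3 array, -0.04 in STAT3 siRNA replicate 1 and -0.05 in replicate 2. Without PIAS3 replicate 1, 26 stood higher and 21 lower, with a median of 0.01. Without PIAS3 replicate 2 the median was 2.41. For these genes the difference between the groups is thus a difference between that single array and the others, as the plot of this list by array shows.

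**Figure D4:**
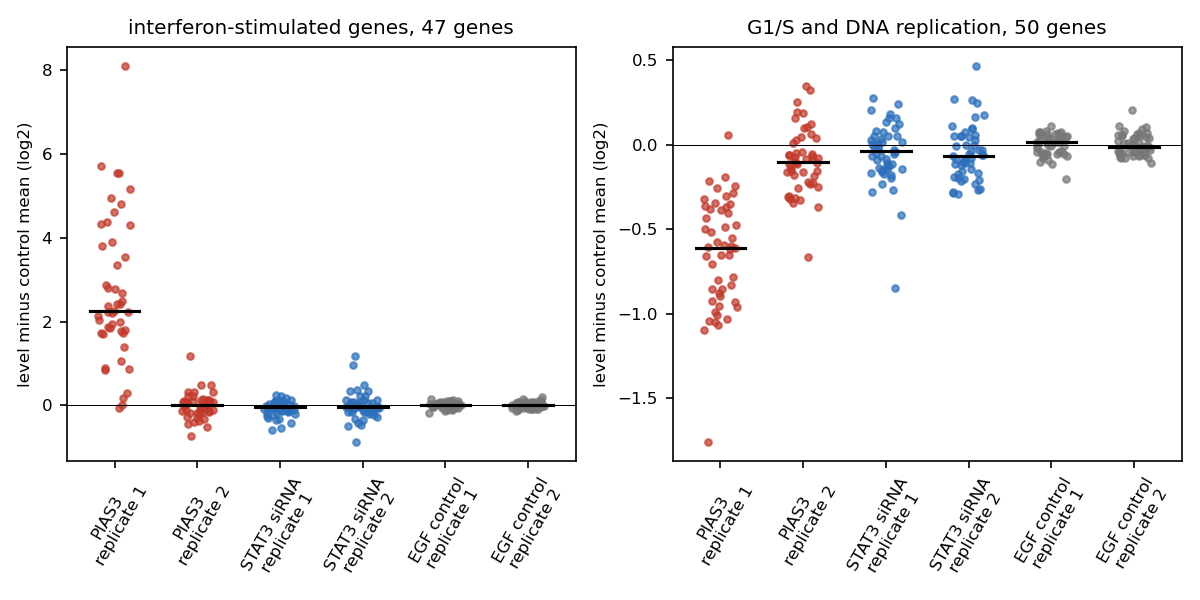
Level minus the control mean on the log2 scale (y axis) for 47 interferon-stimulated genes (left) and 50 genes of G1/S and DNA replication (right) in each of the 6 arrays (x axis); points are genes and bars list medians. PIAS3 replicate 1 stands apart in both panels, with medians of 2.26 and -0.61; PIAS3 replicate 2 has 0.01 and -0.10.

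IFIT1, which binds viral RNA that lacks the cell's own cap marks, stood at 12.36 in PIAS3 replicate 1 and 4.58 in replicate 2, with 4.36 and 5.21 in STAT3 siRNA and 4.18 and 4.32 in control arrays. Its difference was 3.68 ± 2.06, with an unadjusted p of 0.115. MX1, a GTPase that traps viral particles, stood at 10.61 and 4.86 in PIAS3 and 5.05 and 4.94 in siRNA arrays. ISG15, a ubiquitin-like modifier, stood at 12.20 and 6.86 and 7.17 and 7.38 in these groups. PIAS3 replicate 2 was below both siRNA arrays in MX1 and ISG15 and above 1 of them in IFIT1. IFI27 (10.86 and 5.39 in PIAS3), IFI44 (9.02 and 3.78), IFI44L (8.47 and 3.98), IFITM1 (11.44 and 6.36) and TRIM22 (9.17 and 4.47) had the same gap between the PIAS3 arrays.

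In 16 of the 47 genes (34.0%, against 17.0% of all genes) both PIAS3 arrays lay above both siRNA arrays. Since PIAS3 replicate 1 stood far above the siRNA arrays in this list, the count rested mainly on PIAS3 replicate 2. The share of all genes, where either PIAS3 array can break the order, is not a like measure. The count does not show a rise in both PIAS3 arrays. TRIM22 was among the 16 genes, with an unadjusted limma p of 0.0836, so this order did not by itself set apart the 6 genes with a p under 0.05. ISG20, an exonuclease for RNA, stood at 9.02 and 6.74 in PIAS3, 5.70 and 6.60 in STAT3 siRNA and 6.17 and 6.32 in control arrays (1.73 ± 0.65). IFITM2, a membrane protein that blocks virus entry, stood at 12.31 and 10.83, 10.63 and 10.44 and 10.58 and 10.47 (1.03 ± 0.40). OAS1, which activates RNase L on double-stranded RNA, stood at 10.92 and 7.47, 5.97 and 7.47 and 6.34 and 6.24 (2.48 ± 0.99), with 1 PIAS3 array level with 1 siRNA array. SP100 of nuclear bodies (1.04 ± 0.41), the antibody receptor TRIM21 (1.25 ± 0.52) and UBE2L6, the conjugating enzyme for ISG15 (1.23 ± 0.51), complete the 6.

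Promoter windows are shown for 5 members with the wide gap or the smaller p, since the list was not chosen by sequence. A pair of GAAA separated by any 2 bases, on either strand within 250 bases before the start, was found in 23 of the 36 members with a RefSeq promoter (63.9%), against 839 of 27305 promoters (3.07%). Windows of 60 bases lie at chr10:89392488-89392547 for IFIT1, chr14:94110609-94110668 for IFI27, chr1:1013362-1013421 for ISG15, chr15:88638922-88638981 for ISG20 and chr11:313975-314034 for IFITM1, all on the plus strand of GRCh38.p14. Capitals mark the matches, which read as a pair of TTTC where they lie on the opposite strand, and the 2 matches in ISG15 overlap.
IFIT1: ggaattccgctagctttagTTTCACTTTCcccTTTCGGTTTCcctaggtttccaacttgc
IFI27: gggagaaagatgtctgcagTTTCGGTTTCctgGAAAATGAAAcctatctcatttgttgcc
ISG15: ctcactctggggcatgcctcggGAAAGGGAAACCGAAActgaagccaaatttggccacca
ISG20: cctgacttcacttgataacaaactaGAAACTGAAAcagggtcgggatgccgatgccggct
IFITM1: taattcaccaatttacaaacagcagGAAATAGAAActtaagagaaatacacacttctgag
In PIAS3 replicate 1 the 23 members with a match had a median of 2.78 above the control mean and the 13 without one 2.14. In PIAS3 replicate 2 the medians were -0.11 and -0.02.

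Genes for nucleic acid sensors and for interferons themselves were read next. IFIH1 and RIGI encode the cytosolic sensors of double-stranded RNA, and both are themselves induced by interferon. IFIH1 stood at 9.67 and 4.59 in PIAS3, 4.24 and 4.13 in STAT3 siRNA and 4.02 and 3.95 in control arrays, and RIGI at 9.24 and 4.95, 4.65 and 5.32 and 4.87 and 5.16. Both were high in PIAS3 replicate 1 alone. IFNB1, which encodes interferon beta and was named after its values were seen, was 5.61 and 4.78 in PIAS3, 5.15 and 5.12 in STAT3 siRNA and 5.32 and 5.04 in control arrays, so the arrays overlapped. The 14 measured interferon ligand genes differed by -0.25 to 0.22 with a median of -0.05. The factors IRF7 (11.42 and 7.36 in PIAS3 against 7.32 and 7.36 in STAT3 siRNA), IRF9 (11.44 and 8.46 against 8.09 and 8.58) and IRF1 (9.74 and 7.83 against 8.15 and 7.92) were high in PIAS3 replicate 1. For IRF1, PIAS3 replicate 2 was lower than either siRNA array. TICAM1, the adaptor of the RNA receptor TLR3, was the 1 sensor gene of 21 with an unadjusted p under 0.05. It was on the higher side, where 4.19% of all genes lie. Its PIAS3 arrays lay close together: 7.17 and 7.18 in PIAS3, 6.76 and 6.66 in STAT3 siRNA and 6.76 and 6.93 in control arrays (0.47 ± 0.11).

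MHC class I and NF-kB genes also stood highest in PIAS3 replicate 1. The list medians of 17 class I presentation genes were 0.42 above the controls in PIAS3 replicate 1 and -0.18 in its partner, with -0.05 and -0.20 in the siRNA arrays. TAP1, the peptide transporter, stood at 9.48 and 8.13 in PIAS3 and 8.04 and 8.04 in STAT3 siRNA arrays, and PSMB9, a subunit of the immunoproteasome, at 9.15 and 7.93 and 7.99 and 7.60. HLA-E, a ligand of killer cell receptors, stood at 10.04 and 9.32 in PIAS3 and 9.30 and 9.12 in STAT3 siRNA arrays. None of the 17 had an unadjusted p under 0.05 in limma, and without PIAS3 replicate 1 the split was 7 higher and 10 lower. Of 28 NF-kB targets, chemokines and cytokines, 26 stood higher, with a median of 0.20, and 0.08 without PIAS3 replicate 1. PTGS2, which encodes the inducible cyclooxygenase, stood at 8.82 and 7.58 in PIAS3, 5.92 and 7.55 in STAT3 siRNA and 6.47 and 6.26 in control arrays (1.46 ± 0.55), with STAT3 siRNA replicate 2 beside PIAS3 replicate 2. CSF1, a macrophage growth factor, differed by 0.52 ± 0.22, and the chemokine CCL5 was at 7.09 and 5.04 in PIAS3 and 5.03 and 4.60 in STAT3 siRNA arrays.

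Cell cycle genes stood lower in PIAS3, again mostly through replicate 1. All 50 measured genes of G1/S and DNA replication, of 52 listed, had a difference below 0, where 50.4% of all genes did, and the median was -0.27. In 24 of them both PIAS3 arrays were below both siRNA arrays (17.5% of all genes). With PIAS3 replicate 1 low in this list, that count rested mainly on where PIAS3 replicate 2 lay. An unadjusted p under 0.05 was found for 9, against 3.83% of all genes in the lower direction. The list medians relative to control were -0.61 and -0.10 in PIAS3 and -0.04 and -0.07 in STAT3 siRNA arrays. MCM4, a subunit of the replicative helicase, stood at 9.43 and 9.85 in PIAS3, 10.10 and 10.16 in STAT3 siRNA and 10.10 and 10.08 in control arrays (-0.49 ± 0.15). MCM10, which helps to start the helicase (-0.53 ± 0.18), RFC3, a clamp loader subunit (-0.53 ± 0.19), GINS1 (-0.60 ± 0.23), CDC6 (-0.55 ± 0.22) and POLA2, a subunit of DNA polymerase alpha (-0.61 ± 0.25), followed. CCNE2, the cyclin of S phase entry, had the widest difference (-0.66 ± 0.34), with overlapping groups. Without PIAS3 replicate 1, 17 members stood higher and 33 lower, with a median of -0.05.

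For mitosis genes PIAS3 replicate 1 was again the lowest of the transfected arrays, and STAT3 siRNA replicate 1 was the highest. Of 43 measured G2/M genes, 40 stood lower in PIAS3, with a median of -0.19. Relative to control the list medians were 0.02 and 0.21 in PIAS3 and 0.41 and 0.27 in STAT3 siRNA arrays. That of PIAS3 replicate 1 was thus near the control level, and those of the other transfected arrays lay above it. Against STAT3 siRNA replicates 1 and 2, the median difference was -0.41 and -0.25 for PIAS3 replicate 1. For PIAS3 replicate 2 it was -0.15 and 0.02. MKI67, the proliferation antigen Ki-67, stood at 8.90 and 8.69 in PIAS3, 9.24 and 9.01 in STAT3 siRNA and 8.56 and 8.61 in control arrays (-0.34 ± 0.13). CCNA2, the cyclin of S phase and G2, stood at 8.88 and 9.54, 9.95 and 9.73 and 9.32 and 9.49 (-0.63 ± 0.21). KIF18A, a kinesin of the spindle (-0.47 ± 0.16), and TPX2, a spindle assembly factor (-0.29 ± 0.12), also had an unadjusted p under 0.05. That made 4 of the 43 in the lower direction, where 3.83% of all genes lie. With PIAS3 replicate 1 left out, the split was 14 higher and 29 lower, with a median of -0.10. CDK4, the kinase of G1, stood at 10.80 and 11.10 in PIAS3, 11.54 and 11.31 in STAT3 siRNA and 11.44 and 11.50 in control arrays (-0.48 ± 0.14), and its inhibitor CDKN1A, which encodes p21, at 10.49 and 10.24, 10.10 and 9.89 and 10.21 and 10.09 (0.37 ± 0.13). These 2 opposed each other, and in each the groups did not overlap.

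Proteasome subunits were lower in PIAS3 in all 29 measured cases, of 33 listed, with a median of -0.18. In 15 of them both PIAS3 arrays were below both siRNA arrays (17.5% of all genes). As in the G1/S list, PIAS3 replicate 1 was low, so that count rested mainly on PIAS3 replicate 2. PSMD3 (-0.42 ± 0.13), PSMD6 (-0.44 ± 0.15) and PSMA4 (-0.31 ± 0.12) had an unadjusted p under 0.05, against 3.83% of all genes in the lower direction. Relative to control the list medians were -0.25 and 0.001 in PIAS3 and 0.07 and 0.08 in STAT3 siRNA arrays, and without PIAS3 replicate 1 the split was 8 higher and 21 lower.

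Apoptosis genes, which the study asked about, showed little difference between the groups. Of 16 anti-apoptotic BCL2 family and IAP genes, 9 stood higher and 7 lower with a median of 0.01, and of 15 pro-apoptotic members, 7 stood higher and 8 lower with a median of -0.01. The first median was -0.001 when arrays were centred on their medians and the second 0.005 under cyclic loess, so neither kept its sign. In limma, 0 of these 31 genes had an unadjusted p under 0.05. BCL2L2, a survival member, stood at 8.56 and 8.09 in PIAS3, 8.05 and 8.05 in STAT3 siRNA and 8.04 and 7.88 in control arrays (0.28 ± 0.16). BAX, which opens the outer membrane of mitochondria, stood at 8.88 and 9.01, 9.43 and 9.05 and 9.30 and 9.26 (-0.30 ± 0.15). BCL2A1, a survival member induced by NF-kB, stood at 5.39 and 6.12, 5.92 and 6.41 and 6.58 and 6.54 (-0.41 ± 0.25), so the groups overlapped.

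Caspases and apoptosome genes were split 6 higher and 10 lower of 16, and 9 and 7 without PIAS3 replicate 1. CASP5, an inflammatory caspase at a dim level, was the 1 with an unadjusted p under 0.05 (0.29 ± 0.12), on the side where 4.19% of all genes lie. CASP8, the initiator below death receptors, stood at 8.80 and 8.52 in PIAS3, 8.09 and 8.58 in STAT3 siRNA and 8.04 and 8.12 in control arrays (0.32 ± 0.18), with STAT3 siRNA replicate 2 among the PIAS3 arrays. DFFB, the nuclease that cuts chromatin in apoptosis, stood at 4.63 and 5.46 and 5.60 and 5.47 (-0.49 ± 0.24), and its inhibitor DFFA at 8.49 and 8.53 and 8.72 and 8.73 (-0.22 ± 0.11). Of 15 death receptors and ligands, 10 stood higher and 5 lower and 0 had an unadjusted p under 0.05 in limma. TNFSF10, which encodes the death ligand TRAIL and is also induced by interferon, stood at 8.50 and 4.34 in PIAS3, 4.53 and 4.38 in STAT3 siRNA and 4.10 and 3.94 in control arrays (1.96 ± 1.09). It was high in PIAS3 replicate 1 alone. Its receptor TNFRSF10B stood at 10.13 and 9.87, 9.58 and 9.91 and 10.05 and 10.02 (0.26 ± 0.15).

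Of 31 measured genes of p53 and its targets, 17 stood higher and 14 lower, with a median of 0.03. At an unadjusted p under 0.05 there were 4 in the higher direction and 1 in the lower, against 4.19% and 3.83% of all genes. GDF15, a stress cytokine, stood at 10.77 and 9.23 in PIAS3, 8.59 and 9.04 in STAT3 siRNA and 8.89 and 8.72 in control arrays (1.18 ± 0.44). Its height came mostly from PIAS3 replicate 1, and its dimmer probe set gave 0.10 ± 0.10. CDKN1A, given above, XPC, a DNA damage sensor (0.31 ± 0.13), and TP53I11 (0.45 ± 0.13) were the others on the higher side, and PLK2, a polo-like kinase (-0.38 ± 0.11), the 1 on the lower. The other 2 probe sets of TP53I11 gave 0.01 and -0.05. Without PIAS3 replicate 1 the list had 14 higher and 17 lower members.

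Immediate early genes of EGF and ERK signalling stood higher in 26 of 34 cases, with a median of 0.19, and 0.03 without PIAS3 replicate 1. Besides JUNB, IER3 and FOSL2, ATF3, a stress factor, stood at 8.37 and 6.65 in PIAS3, 6.53 and 6.27 in STAT3 siRNA and 8.92 and 8.88 in control arrays (1.11 ± 0.47). PIAS3 replicate 1 was near the controls here and the other transfected arrays were more than 2 log2 units below them. EREG, a ligand of the EGF receptor, stood at 10.04 and 9.57, 10.24 and 10.11 and 10.50 and 10.76 (-0.37 ± 0.18).

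Histone genes were higher in 12 of 19 measured cases, of 31 listed, and 6 had an unadjusted p under 0.05 in the higher direction, with H2BC14 (-0.26 ± 0.11) the 1 in the lower, against 4.19% and 3.83% of all genes. Many histone transcripts lack a poly-A tail and near-identical copies share probes, so single members are uncertain. H1-2, a linker histone, stood at 8.73 and 8.69 in PIAS3, 8.18 and 8.36 in STAT3 siRNA and 8.48 and 8.43 in control arrays (0.44 ± 0.11). H2BC21 differed by 0.60 ± 0.17 and H2AC6 by 0.58 ± 0.17, and without PIAS3 replicate 1 the list was again split 12 higher and 7 lower.

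Stress and metabolic lists had medians near that of all genes, but the PIAS3 arrays differed in some of them. The median of the ATF4 and CHOP list was -0.05, against 0.12 without PIAS3 replicate 1 and -0.17 without replicate 2. That of cholesterol synthesis was -0.03, against 0.12 and -0.16. Of 32 genes of ATF4 and CHOP, 4 had an unadjusted p under 0.05 in the higher direction and 2 in the lower. Of all genes 4.19% and 3.83% did. DDIT4, an inhibitor of mTOR, had evenly placed arrays, 10.47 and 10.45 in PIAS3 and 10.07 and 10.04 in STAT3 siRNA (0.40 ± 0.10). CHMP1B, a membrane scission subunit, differed by 0.47 ± 0.16, and the glutamine transporter SLC1A5 (-0.56 ± 0.21) and the tRNA synthetase WARS1 (-0.39 ± 0.16) lay on the lower side. Among ER chaperone genes XBP1, a factor of the unfolded protein response (0.52 ± 0.17), and HERPUD1 (0.28 ± 0.11) had an unadjusted p under 0.05, as did CRYAB, a small heat shock protein (0.40 ± 0.13), and SREBF2, the regulator of cholesterol synthesis (0.36 ± 0.11). They were 2 of 19 ER chaperone, 1 of 19 heat shock and 1 of 17 cholesterol genes, against 4.19% of all genes in the higher direction. In hypoxia and glycolysis, PKM, a pyruvate kinase (-0.32 ± 0.12), lay on the lower side and CA12, a carbonic anhydrase (0.70 ± 0.26), and VEGFA on the higher. At that p they were 1 and 2 of 32 genes, against 3.83% and 4.19% of all genes.

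The SUMO pathway itself, in which PIAS3 acts, was even, with 8 of 16 genes higher, 8 lower and a median of 0.002 that turned to -0.009 when arrays were centred on their medians. SUMO3, a modifier (-0.45 ± 0.19), was the 1 on the lower side at an unadjusted p under 0.05, where 3.83% of all genes lie. SP100 and PIAS1, both given above, were the 2 on the higher, where 4.19% lie. SAE1, a subunit of the SUMO activating enzyme, stood at 10.72 and 10.95 in PIAS3 and 11.30 and 11.02 in STAT3 siRNA arrays (-0.32 ± 0.14). In the small RNA pathway, which an siRNA uses, 3 of 14 genes stood higher and 11 lower with a median of -0.05, and 0 had an unadjusted p under 0.05 in limma. AGO1, an Argonaute protein, differed by -0.27 ± 0.13. Respiratory chain genes stood lower in 37 of 47 cases with a median of -0.09, and NDUFB6 of complex I, at 10.96 and 11.49 in PIAS3 and 11.54 and 11.55 in STAT3 siRNA arrays (-0.33 ± 0.17), had PIAS3 arrays further apart than the group means. Without PIAS3 replicate 1 this list turned to 33 higher and 14 lower with a median of 0.04, and relative to control that array alone had a median below 0, at -0.11 against 0.11 to 0.16 in the other transfected arrays. None of the 47 had an unadjusted p under 0.05 in limma.

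**Figure D5:**
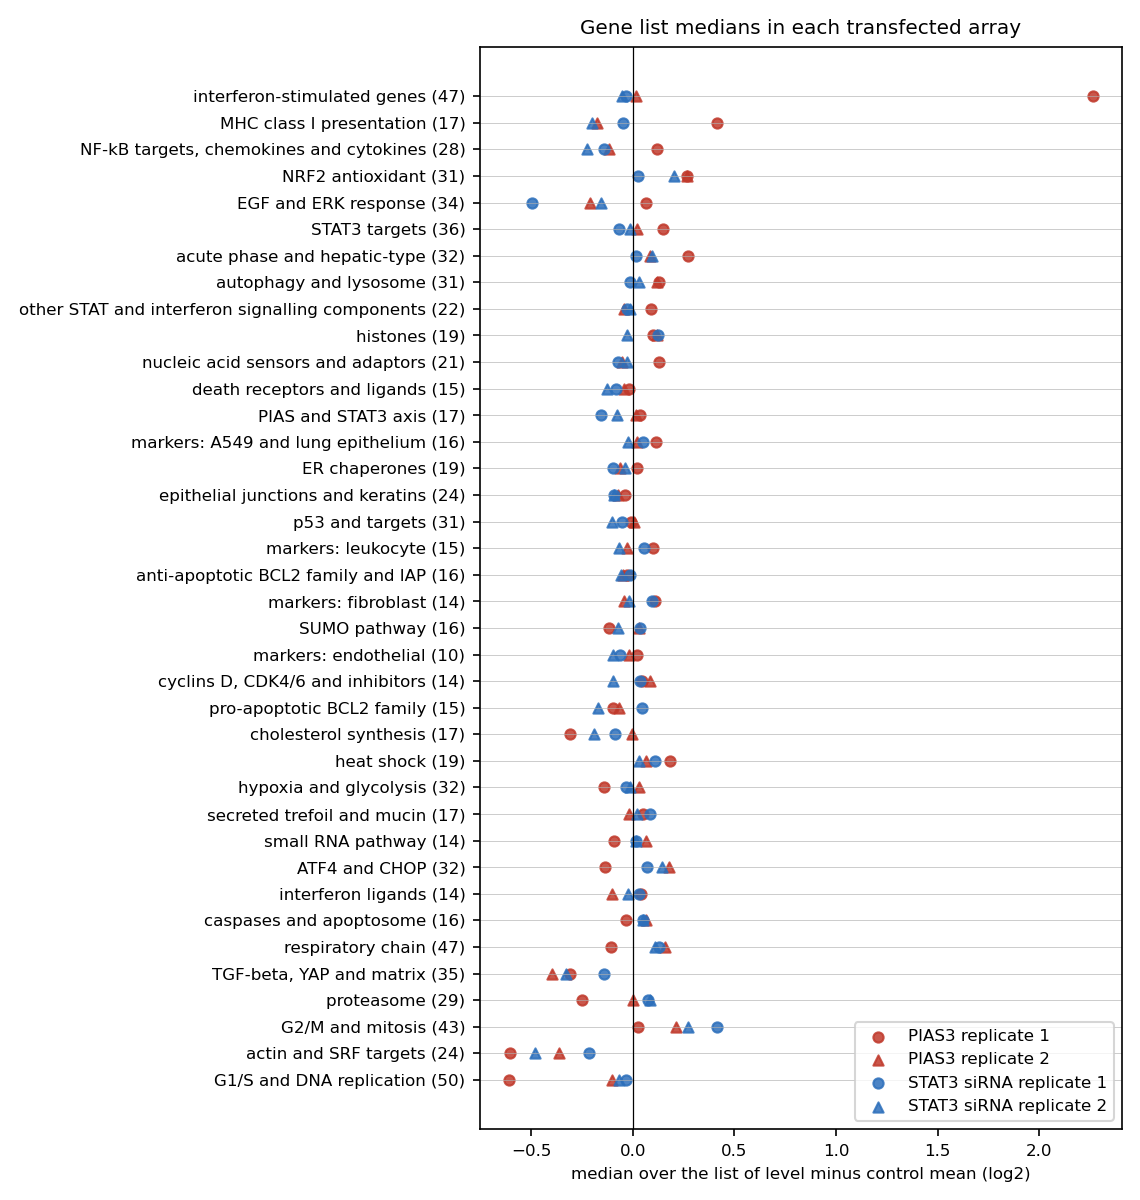
Median over each gene list (y axis, number of measured genes in brackets) of the level minus the control mean on the log2 scale (x axis), 1 point per transfected array. Interferon-stimulated genes in PIAS3 replicate 1 lie furthest out, at 2.26; for NRF2 genes both PIAS3 arrays lie at 0.27, above both siRNA arrays.

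The plot of list medians by array sets the 38 lists side by side. For most lists the 4 points lie close to each other and the groups interleave. Where PIAS3 replicate 1 stands alone, as in the interferon, class I, G1/S and proteasome lists, PIAS3 replicate 2 lies among or near the siRNA arrays. The NRF2 list has both PIAS3 points together, with STAT3 siRNA replicate 2 closer to them than replicate 1 is. It is not alone in this: autophagy and lysosome genes had PIAS3 medians of 0.13 and 0.12 and siRNA medians of -0.02 and 0.03. The PIAS and STAT3 axis and the p53 list also had both PIAS3 points above both siRNA points. Leaving out PIAS3 replicate 1 turned the sign of 16 of the 38 list medians, against 3 without PIAS3 replicate 2, 5 without STAT3 siRNA replicate 1 and 9 without STAT3 siRNA replicate 2.

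Probe sets of 1 gene did not always give the same difference. Of 165 genes followed across settings, 67 had over 1 probe set, and 94 of their 106 other probe sets had the sign of the brightest. In 25 of these genes every other probe set gave under 50% of the difference or the opposite sign. Besides those stated beside their values, they include TMEM47, FOSL2, IL6R, IFIH1, IFI44, TNFRSF10B, FLT1, CLDN3, PKM and SREBF2.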

How the data were processed

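RNA of A549 cells was measured on 6 Affymetrix arrays, 2 per group, and groups and replicate numbers were taken from sample titles. The values, on the log2 scale, are those the authors deposited, made with RMA per the submitters' processing notes. Its version, the array annotation and the build: not given in the sources used here. RMA scales arrays to a shared distribution and pulls differences of dim probe sets towards 0. Of 22277 probe sets, 62 array controls were left out. The platform annotation gave 1 symbol to 19064 probe sets, several to 1043 and none to 2108, and the last 2 kinds were not named. A gene was represented by its brightest probe set, averaged over all 6 arrays.

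A two-sided limma model (version 3.58.1, R 4.3.3; lmFit, then eBayes) took all 6 arrays with 1 mean per group, 3 residual and 4.27 prior degrees of freedom. P-values were adjusted by Benjamini-Hochberg over all 22215 probe sets with a threshold of 0.05, and errors are standard errors of the fit. The model was tested on simulated data. The members and the 38 gene lists were chosen with earlier results of these data known, so the lists are described by counts and medians and were not tested.

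PIAS3 and STAT3 were named first. Then, in each direction, 12 places went to genes past the threshold with separate groups, and, as none passed, to the smallest p among genes with separate groups, a log2 difference of at least 0.5 and a mean of at least 5 in the higher group. For each list the 6 members of smallest p followed, and up to 8 with the widest gap between arrays for a list whose median differed by over 0.5 within a group. Of the list members chosen by this rule, the text describes part. TM4SF20, FGL1, ANG, IFNB1, DCLK1, PDGFC, ANXA13, RAP1GAP, SLC7A7, ERBB3, BCL6, C1S, H2BC14, PTPRC, KRT18, EPCAM, LUM and POSTN were named after their values were seen. The promoter sequences are RefSeq's (GRCh38.p14), searched on both strands for 3 motifs within 250 bases before the start.

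The fit was repeated with the replicate number as a block, with 3 other scalings (cyclic loess, array medians set equal, a second quantile normalization), without probe sets under the 40th percentile of mean level, with eBayes trend, robust eBayes or array weights, on the 4 transfected arrays only, at an adjusted p of 0.10, on the mean over each gene's probe sets, and with each array left out in turn. List counts without single arrays are an addition made once the data had been seen. A lone remaining array was taken to vary as the other groups do. Array dates were not used here and no batch was tested. Figures used matplotlib 3.10.9 in Python 3.11.15.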

Additional observations from a re-analysis of the deposited data

Results flagged for a closer look

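The array's own control RNAs, which take no part in the comparison, gave a signal in 1 array above the level of the control arrays. The 24 probe sets for the poly-A spike-ins had a median log2 level 1.411 above the control mean in PIAS3 replicate 1. The 18 probe sets for the hybridization spike-ins stood 0.478 above it in the same array. In PIAS3 replicate 2 the medians were -0.131 and -0.103, and in the STAT3 siRNA arrays they lay between -0.358 and 0.042. The part of this in the results was not tested.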

How the results depend on the processing

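The counts of 0 higher and 0 lower calls in limma stayed at 0 under all alternatives that kept every array and for which calls were counted, and at an adjusted p under 0.10. On the mean over each gene's probe sets calls were not counted over all genes. With 1 array left out, 0 to 282 probe sets were called higher and 0 to 262 lower. The 282 and 262 came without PIAS3 replicate 2, which leaves replicate 1 to stand for its group, and 1 lower call, PDGFC, came without STAT3 siRNA replicate 2. At an unadjusted p under 0.05 the counts of 793 higher and 1006 lower were 480 and 584 with only the 4 transfected arrays, and also with either control array left out. They were 591 and 700 with array weights, 675 and 1210 with arrays centred on their medians and 963 and 937 under cyclic loess, where the higher side was the larger. Without the dim probe sets they were 526 and 788 of 13329 tested, a larger share (3.95% and 5.91%) than in all probe sets. They were 630 and 577 without PIAS3 replicate 1, 1841 and 2744 without PIAS3 replicate 2, 689 and 420 without STAT3 siRNA replicate 1 and 996 and 1225 without STAT3 siRNA replicate 2. Replicate numbers are shared between groups but no label pairs the arrays. With the replicate block, 0 and 0 probe sets were called, and 786 and 997 had an unadjusted p under 0.05. The deviations of same-numbered PIAS3 and STAT3 siRNA arrays correlated at -0.05 over probe sets.

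All 165 genes checked kept their direction under the alternatives that kept every array. With 1 array left out, 77 genes passed the threshold in 1 fit, and 14 turned their direction. Their log2 differences ranged, over the fits with 1 array left out, from -0.389 to 0.091 for STAT3, -0.028 to 0.657 for SOCS3, -0.207 to 1.701 for IRF1, -0.028 to 3.89 for IFI16, -0.042 to 4.248 for RIGI, -0.019 to 1.734 for EIF2AK2, -0.209 to 7.576 for IFIT1, -0.135 to 5.615 for MX1, -0.048 to 5.422 for IFI27, -0.414 to 4.928 for ISG15, -0.136 to 4.356 for IFI44L, -0.094 to 0.649 for B2M, -0.113 to 4.037 for TNFSF10 and -0.357 to 0.47 for IFNB1. STAT3 turned without PIAS3 replicate 2 and the other 13 without PIAS3 replicate 1. The list medians that changed sign under a rescaling lay between -0.062 and 0.057. Dim probe sets near the absent-transcript level have the least room to show a difference.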

Other observations

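Further genes of the antiviral programme had the same single high array. USP18, which removes ISG15 from proteins and damps interferon signalling, stood at 9.26 and 7.18 in PIAS3 and 6.93 and 6.998 in STAT3 siRNA arrays. IFI16, a sensor of DNA, stood at 8.70 and 4.78 and 4.59 and 5.02, and EIF2AK2, the kinase PKR that halts translation on double-stranded RNA, at 10.76 and 9.01 and 8.89 and 9.17. PML, the scaffold of nuclear bodies, stood at 8.28 and 7.46 in PIAS3 and 7.49 and 7.22 in STAT3 siRNA arrays, and B2M, the light chain of MHC class I, at 12.66 and 11.91 and 12.18 and 11.83. Outside that programme, UNG, a DNA repair glycosylase of S phase, stood at 9.60 and 10.52 in PIAS3, 10.61 and 10.61 in STAT3 siRNA and 10.60 and 10.80 in control arrays, so PIAS3 replicate 1 was the low one. VCL, the focal adhesion protein vinculin, stood at 10.73 and 11.12, 11.40 and 11.17 and 11.83 and 11.78 in the same order, with all 4 transfected arrays below the controls.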
